A study of Mus musculus with 6 samples.

Results

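The genes described here encode Polycomb proteins, lysine demethylases, histone methyltransferases, DNA methyltransferases and Tet enzymes, leaving out Kdm2b and the complex it forms. The rule that lists them uses complex and enzyme class and not their measured change, and 51 of the 54 listed genes were measured among 19936 genes in all. Cbx6 lies on a probe set that names several genes and was left out, and Ash1l and Suv39h1 were not analysed here. Each gene was read on the single-gene probe set with the highest mean level. Affymetrix arrays were used on a stable line derived from mouse embryonic fibroblasts (MEFs). It is a Tet-off line, which as a rule means that it carries a transactivator shut off by tetracycline. The control group was 3 RNA samples of untransfected Tet-off cells. The HA-Fbxl10 group was 3 RNA samples of Tet-off cells transfected with HA-tagged Fbxl10 cDNA together with a hygromycin resistance plasmid, from clones selected for HA-Fbxl10 expression. Fbxl10 is now named Kdm2b. No sample carried the resistance plasmid alone, so transfection, drug selection and the choice of clones cannot be told apart from the effect of Fbxl10. The RNA samples are labelled independent, yet whether separate cultures or clones gave them is not stated. The p-values therefore take in no spread beyond that of these 6 samples, and it may be technical.

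Polycomb proteins keep developmental genes silent. Polycomb repressive complex PRC2 methylates lysine 27 of histone H3 (H3K27), and PRC1 places ubiquitin on histone H2A, either in a canonical form that reads H3K27 methylation through a Cbx subunit or in variant forms that do not. Lysine demethylases of the LSD and JmjC families remove methyl groups from histone lysines, and Kdm2b itself is a JmjC enzyme of H3K36 whose zinc finger binds unmethylated CpG dinucleotides.

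Levels are given as log2 expression after RMA, and differences as HA-Fbxl10 minus control on that scale. Kdm2b read 7.38, 7.45 and 7.28 on the control arrays and 9.77, 9.75 and 9.58 on the HA-Fbxl10 arrays, in the direction of the labels, a rise of 2.33 ± 0.08 (SE). Array medians lay between 4.69 and 4.79, and arrays correlated at 0.994 to 0.996 inside a group and at 0.990 to 0.992 across groups. Of 12 fibroblast markers 10 lay above the median level of all genes (5.36), with Vim, Col1a1, Col1a2 and Fn1 among the highest, while Thy1 (4.56) and Dcn (4.57) lay below it. Their summed log2 level was 111.7 to 112.6 in control and 110.1 to 111.1 in HA-Fbxl10 arrays, with Col3a1, Pdgfra and Prrx1 lower in HA-Fbxl10 cells. Epithelial markers (8), macrophage markers (8), endothelial markers (8) and pluripotency or germ cell markers (10) had 5 members above that median in all. They were Krt8 (6.31), Nanog (6.02), Cd14 (5.81), Cldn4 (5.55) and Cd68 (5.42). In HA-Fbxl10 cells the macrophage marker Cd14 was lower (-0.45) and the endothelial marker Kdr higher (0.51). Below the lower quartile of genes (3.75) lay 2 epithelial, 3 macrophage, 2 endothelial and 5 pluripotency or germ cell markers. Epcam (3.26), Adgre1 (3.12) and Pecam1 (3.71) were among them. The remaining genes of these lists, from Tek (3.78) and Pou5f1 (3.80) up to Lin28a (5.29), lay between that quartile and the median.

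Among the 51 measured members, 8 were higher and 10 lower in HA-Fbxl10 cells, and 33 did not pass the test (limma, Benjamini-Hochberg adjusted p under 0.05). The rises were in Pcgf3, Phf2, Phf8, Asxl2, Kdm1b, Eed, Setd2 and Bap1, and the falls in Kdm5a, Ezh1, Kdm4a, Kdm3a, Kdm5b, Cbx8, Jarid2, Tet3, Kdm6a and Kdm6b. That is 35.3% of the members, against 21.1% of all genes, of which 10.5% were higher and 10.6% lower. The members are brighter than most genes, however, and 48 of them lay above the median level. Of those 48, 37.5% were called, against 37.0% of all genes above the median level (19.2% higher and 17.8% lower), so the share of members called was near the background for genes of their brightness. Subtracting array medians on top of the deposited scaling moved the split over all genes from 2097 higher and 2111 lower to 2650 and 1560. All 10 falls and 8 rises were smaller than 2-fold, running from -0.58 to 0.55, and the median over the members was -0.04 against -0.00427 over all genes. The control and HA-Fbxl10 arrays did not overlap for 25 members, against 36.0% of all genes and 57.9% of those above the median level.

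**Figure D1:**
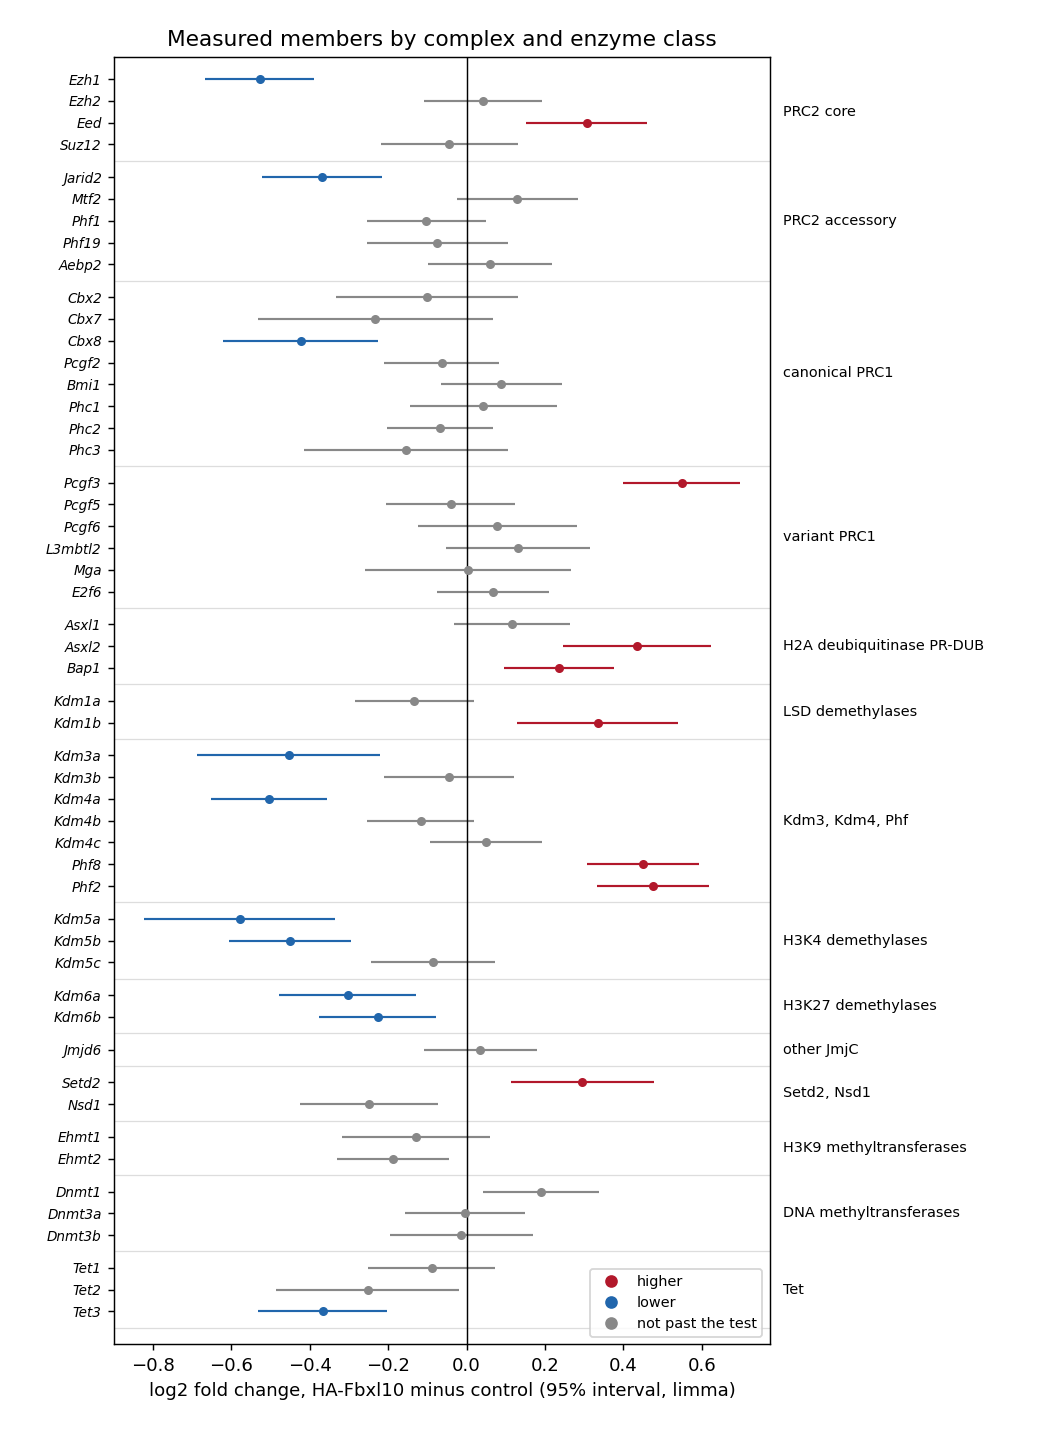
Log2 fold change (HA-Fbxl10 minus control, 3 arrays each) of the 51 measured members, grouped by complex and enzyme class, with 95% intervals from limma. Red points rose, blue points fell and grey points did not pass an adjusted p of 0.05. The calls run from -0.58 for Kdm5a to 0.55 for Pcgf3, and most intervals of the PRC1 genes cross 0.

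The CpG content of the promoters is of interest because the zinc finger of Kdm2b recognises this dinucleotide. RefSeq promoter sequence (GRCm38.p6) was at hand for 45 of the measured members, at 61 start sites. In the 250 bases before the start these held a median of 19 CpG, against 6 over all 32851 promoters and 16 for promoters of genes above the median level. The median was 26.5 (range 12 to 50) at the 8 promoters of 8 members that rose and 17 (0 to 31) at the 11 of 8 members that fell. It was 18.5 (0 to 51) at the 42 of 29 members that did not pass the test. Genes with several start sites thus count more than once. The 3 ranges overlapped, and the difference between the medians was not tested. The 250 bases before the start are printed for Ezh1 and Ezh2, a pair of which 1 fell and the other did not pass the test, for Pcgf3, the largest rise, and for Kdm5b, a histone H3K4 demethylase gene that fell, chosen after their values were seen. The letters run from 5′ to 3′ on the gene's strand, and capitals mark each CpG. The Ezh1 stretch lies at chr11:101226464-101226713 on the minus strand and holds 14 CpG, and that of Ezh2 at chr6:47595031-47595280 on the minus strand holds 23. The Ezh2 start in the promoter table is not the outermost one, so 240 of its 250 bases lie inside the annotated span of the gene, while the other stretches lie wholly outside theirs. The Pcgf3 stretch lies at chr5:108461009-108461258 on the plus strand with 16 CpG, and that of Kdm5b at chr1:134559928-134560177 on the plus strand with 13.
Ezh1: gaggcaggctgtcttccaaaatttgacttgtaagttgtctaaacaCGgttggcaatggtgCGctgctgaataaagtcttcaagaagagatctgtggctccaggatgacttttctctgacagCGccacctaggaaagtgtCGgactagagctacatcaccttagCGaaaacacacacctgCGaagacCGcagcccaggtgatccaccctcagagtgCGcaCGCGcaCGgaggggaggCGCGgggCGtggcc
Ezh2: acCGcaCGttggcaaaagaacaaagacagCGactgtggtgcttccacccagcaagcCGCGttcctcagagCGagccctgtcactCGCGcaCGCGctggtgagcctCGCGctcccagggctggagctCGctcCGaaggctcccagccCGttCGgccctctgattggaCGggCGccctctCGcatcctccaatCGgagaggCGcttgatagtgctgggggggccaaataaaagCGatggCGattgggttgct
Pcgf3: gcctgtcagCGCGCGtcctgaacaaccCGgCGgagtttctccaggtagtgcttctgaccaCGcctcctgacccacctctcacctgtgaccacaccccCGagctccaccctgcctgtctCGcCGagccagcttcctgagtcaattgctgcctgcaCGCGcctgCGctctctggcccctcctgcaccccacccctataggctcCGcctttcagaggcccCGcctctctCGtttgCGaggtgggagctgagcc
Kdm5b: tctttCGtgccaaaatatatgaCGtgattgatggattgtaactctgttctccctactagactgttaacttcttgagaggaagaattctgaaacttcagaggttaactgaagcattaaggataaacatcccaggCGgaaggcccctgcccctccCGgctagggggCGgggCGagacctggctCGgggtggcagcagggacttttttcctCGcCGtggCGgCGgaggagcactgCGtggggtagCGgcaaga
The E-box CACGTG, a motif bound by Max dimers such as that with Mga, occurred on either strand in 18.0% of the members' promoters, in 6.02% of all promoters of this length and in 8.80% of those of genes above the median level. It lay in 10 of the 45 members, and promoters of equal CpG content were not compared. Bap1, Cbx8 and Kdm6a held it among the called members. The E2F motifs TTTCCCGC, TTTCGCGC and TTTGGCGC, counted together on either strand, occurred in 1.53% of all promoters, in 3.18% of those of genes above the median level and in 4.92% of the members' promoters. The members were Dnmt1, Phf19 and Suz12, none of which passed the test. A match is only a run of letters, and no binding was measured in these samples.

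Of the 9 measured PRC2 genes, 1 rose, 2 fell and 6 did not pass the test. That is 33.3% called, against 37.0% of genes above the median level, where all 9 lay. Ezh1 encodes the catalytic subunit typical of resting cells. It read 7.32, 7.28 and 7.38 on the control arrays and 6.76, 6.82 and 6.82 on the HA-Fbxl10 arrays. All HA-Fbxl10 arrays lay below all control arrays, a fall of 0.53 ± 0.06 (SE, limma adjusted p = 0.000385), or 1.44-fold. Ezh2, the catalytic subunit of dividing cells, was the brightest of all members at a mean of 10.45 ± 0.08 (SD, n = 3) in control and 10.49 ± 0.04 in HA-Fbxl10 cells. Its difference was 0.04 with a 95% interval of -0.11 to 0.19. Eed, the subunit that binds methylated H3K27, read 8.16, 8.12 and 8.18 in control and 8.37, 8.46 and 8.55 in HA-Fbxl10 cells. The groups did not overlap, and the rise was 0.31 ± 0.07 (SE, limma adjusted p = 0.0107). A dim second Eed probe set (mean 3.19) differed by 0.15, and averaging the probe sets ended the call (0.23, adjusted p = 0.11). The scaffold subunit gene Suz12 differed by -0.04 (95% interval -0.22 to 0.13).

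Among the PRC2 accessory genes, Jarid2 fell. Its product helps to place PRC2 on chromatin. It read 6.71, 6.69 and 6.84 in control and 6.37, 6.33 and 6.42 in HA-Fbxl10 cells, without overlap, and fell by 0.37 ± 0.07 (SE, limma adjusted p = 0.00417). The Polycomb-like genes Mtf2 (0.13), Phf1 (-0.10) and Phf19 (-0.07), whose products bind CpG-rich DNA, did not pass the test. Nor did Aebp2, a zinc finger cofactor (0.06). Their levels ran from 6.20 for Phf19 to 8.96 for Mtf2 as means over the 6 arrays.

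Of the 14 measured PRC1 genes, 1 rose, 1 fell and 12 did not pass the test. All 14 lay above the median level, and 14.3% of them were called, against 37.0% of genes at such levels. In canonical PRC1 the chromodomain subunit gene Cbx8 was the one that changed. It read 7.03, 7.03 and 6.79 in control and 6.40, 6.61 and 6.56 in HA-Fbxl10 cells, and the groups did not overlap. The fall was 0.42 ± 0.09 (SE, limma adjusted p = 0.0077), or 1.34-fold. The other chromodomain genes Cbx2 (-0.10) and Cbx7 (-0.23) did not pass the test, and the control arrays of Cbx7 were spread widely, at 5.65, 5.83 and 5.23. Without control replicate 3 the Cbx7 difference was -0.40 with an adjusted p of 0.0112. The RING finger subunit genes Pcgf2 (-0.06) and Bmi1 (0.09) and the SAM domain genes Phc1 (0.04), Phc2 (-0.07) and Phc3 (-0.15) did not pass either. For Phc3 control replicate 2 stood lowest at 7.60 against 7.94 and 8.12, and without it the difference was -0.30 (adjusted p = 0.0345). Bmi1 was the brightest PRC1 gene, at 9.74 ± 0.08 in control and 9.83 ± 0.06 in HA-Fbxl10 cells (SD, n = 3 each).

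In variant PRC1, Pcgf3 rose. It encodes the RING finger subunit of a complex without Cbx proteins, and it read 8.31, 8.28 and 8.34 in control and 8.87, 8.93 and 8.78 in HA-Fbxl10 cells. No array of one group reached the range of the other, and the rise of 0.55 ± 0.07 (SE, limma adjusted p = 0.000435), or 1.46-fold, was the largest among the members. Its closest relative Pcgf5 differed by -0.04 (95% interval -0.20 to 0.12). Genes of the complex around Pcgf6 also did not pass the test, with Pcgf6 at 0.08, the MBT domain gene L3mbtl2 at 0.13, the Max partner gene Mga at 0.0038 and the repressor gene E2f6 at 0.07. Mga was the least precise of them, with a 95% interval of -0.26 to 0.27.

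The deubiquitinase complex PR-DUB removes the ubiquitin that PRC1 places on H2A. Asxl2, a cofactor subunit gene, read 6.75, 6.48 and 6.71 in control and 7.06, 7.16 and 7.03 in HA-Fbxl10 cells. The groups did not overlap, and the rise was 0.44 ± 0.08 (SE, limma adjusted p = 0.00517). Bap1, the catalytic subunit gene, read 8.92, 9.01 and 8.93 in control and 9.15, 9.23 and 9.20 in HA-Fbxl10 cells, a rise of 0.24 ± 0.06 without overlap (adjusted p = 0.0241). Asxl1, the paralogue of Asxl2, differed by 0.12 (95% interval -0.03 to 0.26) and did not pass the test. Bap1 no longer passed with any 1 array left out other than control replicate 2 or HA-Fbxl10 replicate 1, with an adjusted p between 0.0603 and 0.0835.

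**Figure D2:**
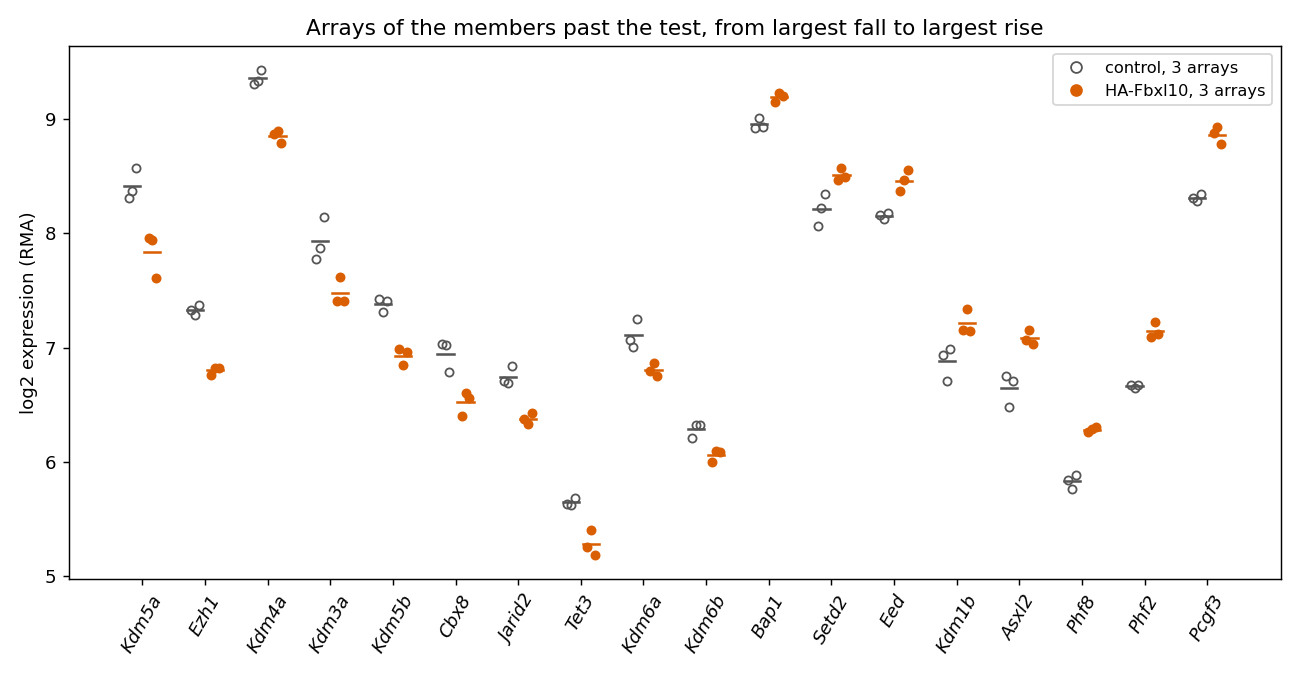
Log2 expression of the 18 members past the test on each array, ordered from the largest fall (Kdm5a) to the largest rise (Pcgf3). Open circles are the 3 control arrays, filled circles the 3 HA-Fbxl10 arrays and bars the group means. No gene shows overlap of the groups, and the arrays of Kdm5a, from 7.61 to 8.57, are the most spread within their groups.

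Lysine demethylase genes held 9 of the 18 calls. Of the 14 measured, with Jmjd6 left out, 3 rose, 6 fell and 5 did not pass the test. That is 64.3% called against 37.0% of genes above the median level. This class was picked out after its values were seen, and the share was not tested. It may also depend on where the class is drawn. Of 13 other JmjC genes that are not members, Kdm2a and Jmjd1c among them, 30.8% were called. Only 7 of those 13 lay above the median level, against all of the 14, so the shares were not taken at equal brightness. Among the 14, the falls were in Kdm5a, Kdm5b, Kdm4a, Kdm3a, Kdm6a and Kdm6b, and the rises in Phf2, Phf8 and Kdm1b.

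The Kdm5 enzymes remove methyl groups from H3K4, a mark of active promoters. Kdm5a read 8.31, 8.37 and 8.57 in control and 7.96, 7.94 and 7.61 in HA-Fbxl10 cells. Although HA-Fbxl10 replicate 3 stood lowest, all 3 lay below control, and the fall of 0.58 ± 0.11 (SE, limma adjusted p = 0.00439) was 1.49-fold. Kdm5b read 7.42, 7.31 and 7.41 in control and 6.99, 6.84 and 6.96 in HA-Fbxl10 cells, again without overlap. It fell by 0.45 ± 0.07 (adjusted p = 0.00154). The X-linked Kdm5c differed by -0.08 (95% interval -0.24 to 0.07) and its groups overlapped.

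Of the JmjC genes for H3K9 and H3K36, 2 fell and 2 rose among 7 measured, or 57.1% against 37.0% of genes above the median level. Kdm4a, whose product acts on trimethylated H3K9 and H3K36, read 9.31, 9.33 and 9.43 in control and 8.87, 8.89 and 8.79 in HA-Fbxl10 cells. All HA-Fbxl10 arrays were lower, by 0.50 ± 0.07 on average (SE, limma adjusted p = 0.000662). Kdm3a, an H3K9 demethylase gene, read 7.78, 7.87 and 8.14 in control and 7.41, 7.62 and 7.41 in HA-Fbxl10 cells. This fall of 0.45 ± 0.10 (adjusted p = 0.0119) came without overlap, and the call ended without HA-Fbxl10 replicate 3 (adjusted p = 0.053). The PHD finger demethylase genes Phf2 and Phf8 went the other way. Phf2 read 6.67, 6.65 and 6.68 in control and 7.09, 7.22 and 7.12 in HA-Fbxl10 cells, a rise of 0.48 ± 0.06 (adjusted p = 0.000765). Phf8 read 5.85, 5.77 and 5.89 against 6.26, 6.29 and 6.30, a rise of 0.45 ± 0.06 (adjusted p = 0.000984). In both the groups lay well apart relative to their spread. Kdm7a, a JmjC gene related to Phf2 and Phf8 but not a member, was lower instead (-0.80, limma adjusted p = 0.00011). Its mean of 4.78 lay below the median level of all genes. The relatives Kdm3b (-0.04), Kdm4b (-0.12) and Kdm4c (0.05) did not pass the test.

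Of the flavin-dependent LSD demethylase genes, Kdm1b rose and Kdm1a did not pass the test. Kdm1b read 6.94, 6.71 and 6.99 in control and 7.15, 7.34 and 7.15 in HA-Fbxl10 cells, without overlap. The rise was 0.34 ± 0.09 (SE, limma adjusted p = 0.0276). Kdm1b no longer passed with any 1 array left out other than control replicate 3, with an adjusted p between 0.0518 and 0.0946. Kdm1a differed by -0.13 (95% interval -0.29 to 0.02). Jmjd6, a JmjC gene whose product also hydroxylates lysine in splicing factors, differed by 0.04.

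Both H3K27 demethylase genes fell, by small amounts. Kdm6a read 7.07, 7.01 and 7.25 in control and 6.79, 6.87 and 6.75 in HA-Fbxl10 cells, without overlap. Its fall of 0.30 ± 0.08 (SE, limma adjusted p = 0.0213) no longer passed when control replicate 3, HA-Fbxl10 replicate 1 or HA-Fbxl10 replicate 3 was left out, with an adjusted p between 0.0565 and 0.0805, nor when array medians were subtracted (0.0727). Kdm6b read 6.21, 6.32 and 6.32 in control and 6.0, 6.10 and 6.08 in HA-Fbxl10 cells. The groups did not overlap, but the fall of 0.23 ± 0.07 (adjusted p = 0.0375) was the least firm call, lost in 14 of 18 alternatives, among them the loss of any 1 array other than control replicate 1 (adjusted p of 0.0631 to 0.132).

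Kdm6a and Kdm5c lie on the X chromosome and are known to escape X inactivation, the silencing of one X in female cells by the RNA Xist. Xist read 8.19, 8.04 and 8.53 in control and 3.28, 3.40 and 3.05 in HA-Fbxl10 cells. The HA-Fbxl10 arrays lay below the lower quartile of all genes. Of 3 other X-linked genes on the list of X dosage genes, Eif2s3x (-0.46) and Utp14a (-0.44) fell and Ddx3x (0.12) did not pass the test. The Y-linked genes Kdm5d, Uty and Eif2s3y had means of 3.26, 3.11 and 2.50 over the 6 arrays and lay below the lower quartile in both groups. Phf8, the X-linked member that rose (0.45), went the other way from Kdm6a, Eif2s3x and Utp14a. The part of Xist and X dosage in the values of Kdm6a, Kdm5c and Phf8 was not tested.

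Among histone methyltransferase genes, Setd2 rose and 3 did not pass the test, or 25% called against 37.0% of genes above the median level. Setd2, the enzyme that trimethylates H3K36 in transcribed genes, read 8.07, 8.22 and 8.35 in control and 8.46, 8.57 and 8.49 in HA-Fbxl10 cells. The groups came close but did not overlap, and the rise was 0.30 ± 0.08 (SE, limma adjusted p = 0.0288). It ended without any 1 array other than control replicate 3 (adjusted p of 0.0593 to 0.1001), and a second Setd2 probe set gave 0.34. Nsd1, which dimethylates H3K36, differed by -0.25 and just missed the threshold (adjusted p = 0.0505), with 6.97, 7.04 and 7.22 in control and 6.80, 6.87 and 6.81 in HA-Fbxl10 cells. The H3K9 methyltransferase genes Ehmt2 (-0.19, adjusted p = 0.0672) and Ehmt1 (-0.13, adjusted p = 0.354) form a heterodimer, and limma called 0 of these 2, with 1 at an unadjusted p under 0.05. Ehmt2 passed the test under 5 of 18 alternatives, with an adjusted p between 0.0149 and 0.0408.

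Of the 6 DNA methyltransferase and Tet genes, 1 fell and 5 did not pass the test. That is 16.7% called, against 21.1% of all genes and 37.0% of those above the median level, where 3 of the 6 lay. Limma called 0 of the 3 DNA methyltransferase genes, with 1 at an unadjusted p under 0.05. That was Dnmt1, which copies methylation after replication and was bright at 9.48 ± 0.07 in control and 9.67 ± 0.04 in HA-Fbxl10 cells (SD, n = 3 each, difference 0.19, adjusted p = 0.0721). Dnmt1 passed the test under 5 of 18 alternatives, with an adjusted p between 0.0113 and 0.0496. The de novo enzymes Dnmt3a (-0.00386, 95% interval -0.16 to 0.15) and Dnmt3b (-0.01, -0.19 to 0.17) differed by less than their errors. Tet enzymes oxidise methylated cytosine, and Tet3 fell. It read 5.63, 5.63 and 5.69 in control and 5.26, 5.40 and 5.19 in HA-Fbxl10 cells, without overlap, a fall of 0.37 ± 0.07 (SE, limma adjusted p = 0.00595). The HA-Fbxl10 arrays of Tet3 straddled the median level of all genes, with 5.40 above and the other two below it. Tet1 (mean 4.14, difference -0.09), Tet2 (mean 3.78, difference -0.25) and Dnmt3b (mean 4.92) lay below that median, where RMA compresses differences, so their values are the least informative here.

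Related genes were compared in 13 pairs to ask whether members of a pair changed unequally. For each array the log2 ratio of the pair was taken, and the groups were compared with an exact two-sided permutation test, for which 0.1 is the smallest p that 3 against 3 arrays allow. The ratios of the groups did not overlap in 6 pairs, each with that smallest p and an adjusted p of 0.217 over the 13 pairs. As no p below 0.1 was possible, no pair could have passed 0.05. The test therefore cannot decide whether a pair changed unequally. The difference was -0.57 ± 0.05 (SE) for Ezh1 minus Ezh2 and 0.59 ± 0.07 for Pcgf3 minus Pcgf5. It was -0.39 ± 0.03 for Kdm4a minus Kdm4b, -0.41 ± 0.13 for Kdm3a minus Kdm3b, -0.32 ± 0.12 for Asxl1 minus Asxl2 and -0.15 ± 0.06 for Pcgf2 minus Bmi1. The ratios overlapped for Kdm5a and Kdm5b (-0.13 ± 0.16) and for Kdm6a and Kdm6b (-0.08 ± 0.08), pairs of which both members fell. They also overlapped for Ehmt1 and Ehmt2, Dnmt3a and Dnmt3b, Tet2 and Tet3, Phc1 and Phc2, and Cbx2 and Cbx7, with differences of 0.009 to 0.13.

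**Figure D3:**
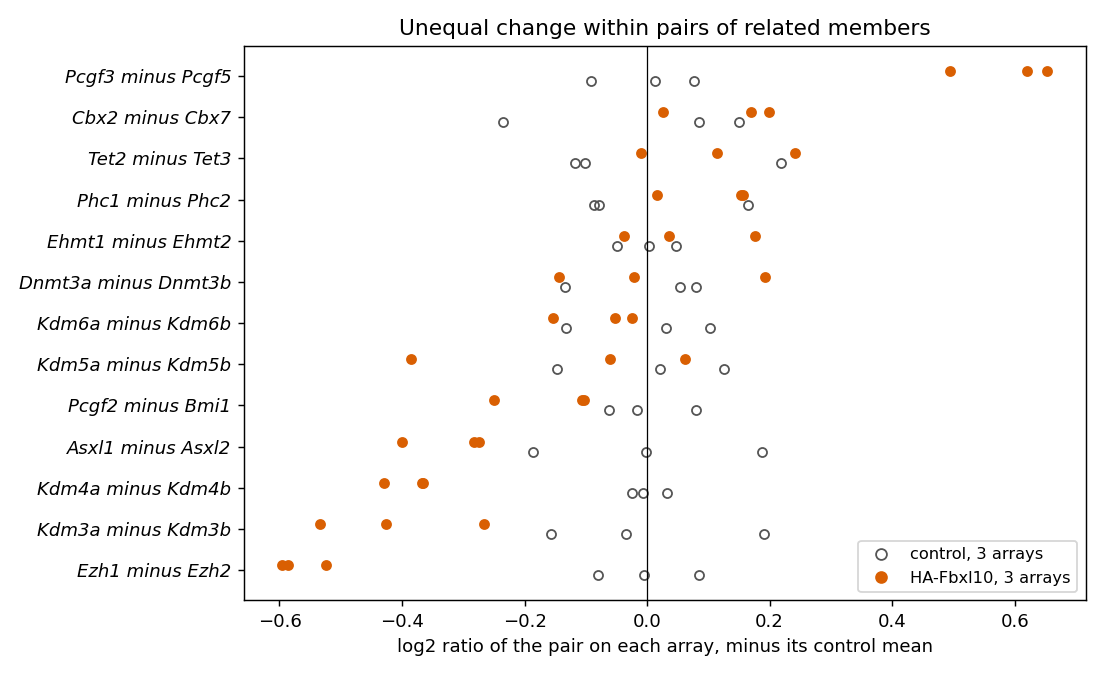
Log2 ratio of each of 13 pairs of related members on each array, minus the mean of the control arrays. Open circles are control arrays and filled circles HA-Fbxl10 arrays. From the foot to the top, the HA-Fbxl10 arrays stand clear of control for Ezh1 minus Ezh2 (-0.57) and Pcgf3 minus Pcgf5 (0.59), and they mix with control in 7 pairs.

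Neighbouring genes often changed in the same direction, and each member was therefore set beside the median fold change of its 30 nearest genes above the median level on the same chromosome. Of the 18 called members, 16 had the same sign as their neighbours. Over all 3689 called genes above the median level, 78.8% did. Tet3 fell as much as its surroundings (both -0.37). Setd2 (0.30 against 0.26) and Bap1 (0.24 against 0.20) also lay close to theirs. Kdm6b lay at -0.23 against -0.15, Kdm1b at 0.34 against 0.19 and Phf8 at 0.45 against 0.27. Others stood farther from their neighbours. Jarid2 fell by 0.37 where its neighbours had a median of 0.23, and Asxl2 rose by 0.44 where they had 0.02. Kdm5b fell by 0.45 against a median of -0.01, Kdm4a by 0.50 against -0.08 and Kdm5a by 0.58 against -0.12. Pcgf3 rose by 0.55 against 0.12, and Phf2 by 0.48 against 0.20.

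With a running median of 31 neighbours subtracted, 12 members passed the test, against 15.4% of all genes. The latter share takes in dim genes, and the share of genes above the median level was not taken under this alternative. As most members are brighter than that level, no excess of members can be read from the comparison. Of the 18 members, 9 kept their call, namely Ezh1 (-0.31), Jarid2 (-0.59), Kdm4a, Kdm5a, Kdm5b, Kdm6a, Asxl2, Pcgf3 (0.42) and Phf2 (0.26). The calls of Bap1, Cbx8, Eed, Kdm1b, Kdm3a, Kdm6b, Phf8, Setd2 and Tet3 ended. Kdm5c (-0.28) and Jmjd6 (0.23) passed the test under this alternative alone of the 18, and Nsd1 (-0.37) under this and 7 others. The part that these regional shifts play in the members' values was not tested further.

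**Figure D4:**
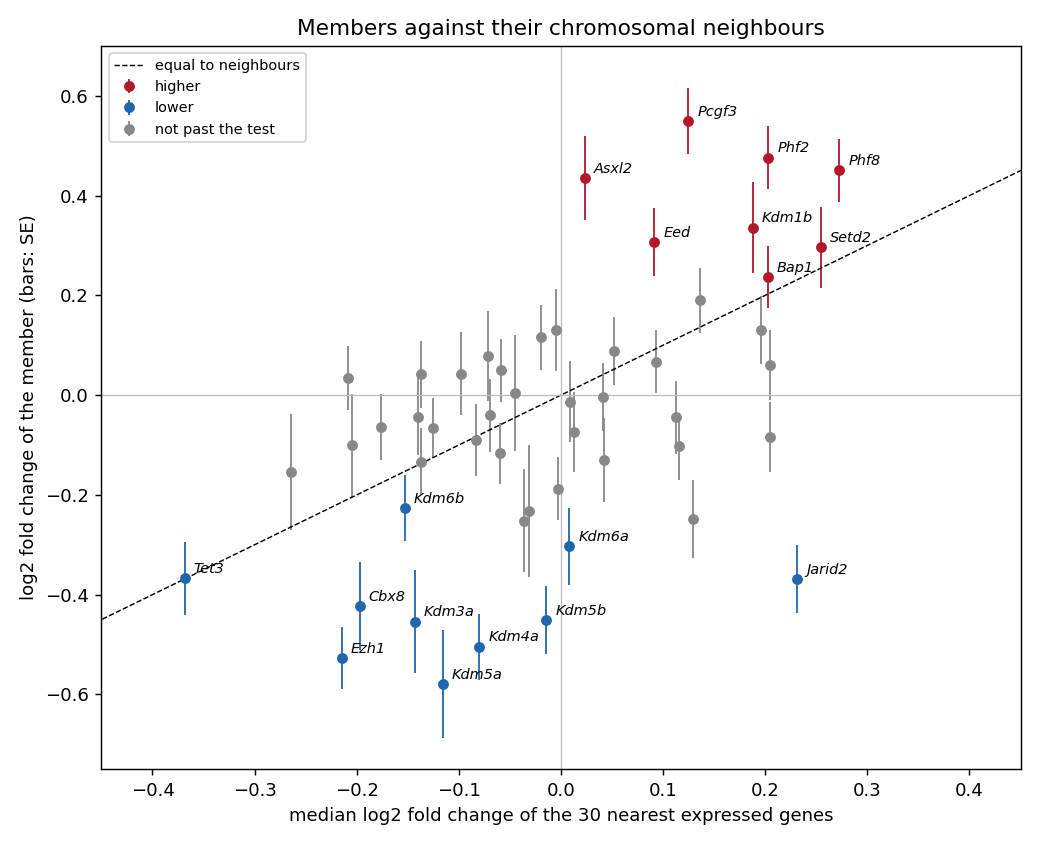
Log2 fold change of each of the 51 members (bars, SE) against the median log2 fold change of its 30 nearest expressed genes. The dashed line marks a change equal to that of the neighbours. Tet3, Setd2 and Bap1 lie on or near the line, while Jarid2 (-0.37 against 0.23) and Kdm6a (-0.30 against 0.01) lie on the other side of 0 from their neighbours.

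Other genes of histone and DNA methylation were taken from 6 lists of 98 genes, 92 of them measured. Of these, 15 rose and 13 fell, 30.4% against 21.1% of all genes, with a median of -0.01. Of the 73 above the median level 35.6% were called, against 37.0% of all genes above it. In the COMPASS and MLL complexes, which methylate H3K4, 4 of 12 rose and the others did not pass the test, with the core subunit gene Dpy30 highest at 0.45. All 12 lay above the median level, and 33.3% of them were called, against 37.0% of genes above it (19.2% higher, 17.8% lower). Among 13 other JmjC genes, 1 rose (Kdm8, 0.41) and 3 fell, with Jmjd8 lowest at -1.05. Among 21 other lysine methyltransferase genes, 3 rose and 4 fell, from -0.28 for Smyd5 to 0.52 for Nsd2, a relative of Nsd1. Among 22 other Polycomb genes, 5 rose and 2 fell, from -0.53 for Sfmbt2 to 0.99 for Lcorl. Among 15 other DNA methylation genes, 1 rose, the Dnmt1 cofactor gene Uhrf1 (0.29), and 4 fell, with Gadd45a lowest at -0.38. Of 9 arginine methyltransferase genes 1 rose, Carm1 (0.54).

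Genes of S phase and mitosis were set beside the members whose levels follow division. Of 19 such genes, all above the median level, 9 rose and 10 did not pass the test, where 19.2% of genes above that level were higher. The rises were in Mki67, Pcna, Mcm3, Mcm4, Mcm5, Rrm1, Rrm2, Cdc6 and Ccne2. Top2a (-0.09), Ccna2 (-0.09), Cdk1 (-0.17), Bub1 (-0.02), Aurkb (-0.17) and Plk1 (0.10) did not pass the test, nor did Mcm2, Mcm6, Mcm7 and Ccne1. The rise was thus not shared by the whole list. The 19 genes had a median of 0.19. Their summed log2 level was 187.3 to 188.0 in control and 190.8 to 191.3 in HA-Fbxl10 arrays. Ezh2 (0.04), Dnmt1 (0.19) and Suz12 (-0.04) did not pass the test in the same arrays. The part of cell division in the members' values was not tested.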

How the data were processed

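RNA of 6 samples (300 ng each, biotin label, per the labels) was hybridised. The authors deposited log2 expression values, 1 per probe set and array. RMA is the tool that the submitters' processing notes name. RMA equalises the arrays' distributions and compresses low values, which hides any shift that most genes share. For RMA the version was not given in the sources used here. No scan date or batch is recorded, and batch was not tested.

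Of 35556 probe sets, 21789 name 1 gene, 1621 several and 12146 none. Symbols were updated to RefSeq (GRCm38.p6) through Entrez identifiers (21698 probe sets) or accessions (3), and 88 were kept. The brightest single-gene probe set per gene was used, with no filter on dim genes. The test was limma 3.58.1 (R 4.3.3; lmFit and eBayes, two-sided), with Benjamini-Hochberg adjustment over 19936 genes. The number of arrays limits the precision. Simulated arrays with the means and spreads of these data (19936 genes, 200 of them changed) gave 9 false calls. In them 16% of the genes changed by 0.3 were found, 66% of those changed by 0.5 and 96% of those changed by 1 or by 2. In the data themselves 4208 genes passed, which makes the adjustment less strict, so these shares do not carry over to them. The members and lists were chosen with earlier results of these data known. Every member was named, with all arrays given for those past the threshold. From each list of related genes the largest rise and fall were given, and Kdm7a besides, picked after its value was seen. The alternatives are given in the closing section. Same-numbered replicates did not deviate together, so the numbers pair no samples.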

Additional observations from a re-analysis of the deposited data

How the results depend on the processing

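The counts of calls and the members' fold changes were recomputed under 18 alternatives (17 for Tet2, which the filter on dim genes removes) and the 13 pairs under 8. Counts over the neighbours, related lists, marker lists and promoters were not recomputed. In all, 8 of the 18 called members passed the test in all 18 alternatives: Ezh1, Jarid2, Kdm4a, Kdm5a, Kdm5b, Asxl2, Pcgf3 and Phf2. Without single arrays 12 of the 18 kept their call each time, and the number of members higher was 5 to 7. Counts moved by over 1.5 times in these cases. An adjusted p of 0.01 left 2536 genes and 11 members, 4 of them higher. Members higher numbered 5 with all probe sets tested by identifier, 5 with chromosome medians subtracted and 4 with the running median subtracted. Except for the stricter threshold and the larger number of features tested, the cause was not tested. Under the running median Bap1 and Tet3 came to 0, since each was the median of its own window. With the replicate number as a block, 14 members passed and the calls of Bap1, Kdm1b, Kdm6a and Kdm6b ended, while 3397 genes passed in all. Correlations of the deviations of same-numbered arrays were 0.14, -0.31 and -0.04, so the numbers are not taken to pair the samples.

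The sign turned in 43 comparisons, all of members that did not pass the test, and the cause was not tested. With quantile normalisation the difference was 0.049 for Dnmt3a, 0.032 for Dnmt3b and -0.021 for Ezh2. With array medians subtracted the difference was 0.051 for Dnmt3a, 0.042 for Dnmt3b, 0.010 for Kdm3b, 0.014 for Pcgf5 and 0.011 for Suz12. With array weights the difference was 0.019 for Dnmt3b. With chromosome medians subtracted the difference was 0.031 for Cbx2, -0.026 for Dnmt1, -0.020 for Mga, -0.037 for Mtf2, 0.068 for Pcgf2, 0.078 for Pcgf5, 0.017 for Phc2, 0.076 for Phc3 and 0.088 for Suz12. With the running median subtracted the difference was -0.14 for Aebp2, 0.098 for Cbx2, -0.014 for E2f6, 0.0032 for Kdm1a, -0.030 for Mtf2, 0.10 for Pcgf2, 0.016 for Pcgf5, 0.051 for Phc2, 0.11 for Phc3 and 0.086 for Suz12. Without single arrays it ran from -0.0027 to 0.068 for Ezh2, -0.11 to 0.083 for Mga, -0.073 to 0.048 for Dnmt3b, -0.0052 to 0.060 for Jmjd6, -0.10 to 0.0025 for Kdm3b, -0.015 to 0.13 for Pcgf6, -0.012 to 0.12 for Phc1, -0.036 to 0.037 for Dnmt3a, -0.094 to 0.020 for Pcgf5 and -0.11 to 0.021 for Suz12.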
